A study of Mus musculus with 9 samples.

Results

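The genes described here encode 9 proteins of the tight junction: occludin (Ocln), the scaffolds ZO-1 (Tjp1) and ZO-3 (Tjp3), the claudins Cldn1, Cldn3, Cldn4 and Cldn7, the adhesion molecule JAM-A (F11r) and tricellulin (Marveld2). They were chosen by name, for the known role of their products and with earlier results of these data known, and all 9 were present among the 18755 genes with deposited counts. The study transplanted 1000000 4T1 cells, a metastatic mouse mammary carcinoma line, into mammary fat pad 9 of female BALB/c mice aged 6 to 10 weeks. From day 15, mice were given BI 853520 (BI) at 50 mg/kg by oral gavage for 5 days, or the 0.5% Natrosol vehicle. BI is an inhibitor of focal adhesion kinase (FAK, encoded by Ptk2). The sequenced tumors came from 6 mice given BI and 3 given vehicle. RNA of each tumor was sequenced as 1 library, and the comparison asked which transcripts differed between BI-treated and vehicle-treated tumors. RNA was isolated from tumor pieces that also contain host cells, so that fewer cells of a type and less RNA per cell cannot be told apart.

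Tight junctions seal the space between neighboring epithelial or endothelial cells near their apical side. Claudins form the strands and set which ions pass, occludin and tricellulin are 4-pass MARVEL proteins of bicellular and tricellular contacts, JAM-A is a single-pass immunoglobulin protein, and ZO proteins tie all of these to the actin cytoskeleton. In carcinoma cells, loss of tight junctions is a known part of epithelial-mesenchymal transition (EMT), in which the repressors Snai1, Zeb1 and Twist1 act on epithelial genes. 4T1 cells are regarded as having gone through such a transition in part.

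Total counts on genes ranged from 21727879 to 33850245 in the vehicle-treated tumors and from 16931607 to 22349873 in the BI-treated tumors. A floor of 3 counts corresponded to 0.0886 to 0.177 CPM (counts scaled to library size), which covers counting error only. The study kept only tumors whose RNA quality sufficed, and how many each group lost is not given in the sources used here. The labels do not state further how the tumors were sampled, and p-values measure the spread between these 9 tumors. The targeted gene Ptk2 had a mean of 230 ± 15.4 CPM (SD, n = 3) with vehicle and 199 ± 9.28 CPM (SD, n = 6) with BI, an edgeR log2 fold change of -0.20 with an adjusted p of 0.0259, which was lost without vehicle 1 (0.0814), vehicle 3 (0.133) or BI 7 (0.0514). Tumors are named by treatment and sample number, vehicle 1 to 3 and BI 4 to 9. Of these, vehicle 3 and BI 9 stood apart in markers of other cells, given further on with the results that rest on them.

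The 5′ regions of Ocln, F11r, Tjp3 and Cldn4 are shown because 3 of them were called between the treatments and the groups did not overlap for 3 of the 4, as described below. The RefSeq start-site windows (GRCm38.p6) are printed from 250 bases before to 30 bases after the start, with matches to the E-box CAGGTG, which Snail and ZEB repressors are known to bind, in capitals on either strand (CACCTG is the same box on the other strand). The windows lie at chr13:100552689-100552968 (minus strand) for Ocln, chr1:171437311-171437590 (plus) for F11r, chr10:81291552-81291831 (minus) for Tjp3 and chr5:134946905-134947184 (minus) for Cldn4.
Ocln: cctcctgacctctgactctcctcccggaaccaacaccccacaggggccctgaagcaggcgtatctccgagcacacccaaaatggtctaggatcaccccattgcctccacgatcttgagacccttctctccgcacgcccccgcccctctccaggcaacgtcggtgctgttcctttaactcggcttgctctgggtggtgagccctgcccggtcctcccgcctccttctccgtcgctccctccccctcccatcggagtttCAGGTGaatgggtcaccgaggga
F11r: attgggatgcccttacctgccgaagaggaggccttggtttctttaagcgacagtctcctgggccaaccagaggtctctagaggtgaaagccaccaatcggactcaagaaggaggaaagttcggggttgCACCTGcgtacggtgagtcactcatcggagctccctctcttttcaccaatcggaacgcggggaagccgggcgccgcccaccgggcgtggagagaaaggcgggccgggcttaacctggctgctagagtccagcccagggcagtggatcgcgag
Tjp3: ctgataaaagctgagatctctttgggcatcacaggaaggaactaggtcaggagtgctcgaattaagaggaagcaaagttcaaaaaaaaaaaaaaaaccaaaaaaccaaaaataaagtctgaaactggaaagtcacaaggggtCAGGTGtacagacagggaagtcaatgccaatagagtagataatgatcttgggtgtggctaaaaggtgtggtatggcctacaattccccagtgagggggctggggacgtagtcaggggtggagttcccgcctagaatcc
Cldn4: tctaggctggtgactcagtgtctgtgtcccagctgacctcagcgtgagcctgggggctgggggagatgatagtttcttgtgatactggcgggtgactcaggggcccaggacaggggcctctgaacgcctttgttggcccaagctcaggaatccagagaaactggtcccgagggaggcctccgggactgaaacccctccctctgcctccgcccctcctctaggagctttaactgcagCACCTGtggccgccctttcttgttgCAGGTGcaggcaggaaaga

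In these windows, which belong to the most upstream start that RefSeq gives each gene, the first base of the match lay 8 bases after the start in Ocln, 122 before it in F11r and 108 before it in Tjp3, while Cldn4 held matches 14 before and 12 after its start. Ocln and Tjp3 also have a second start, with matches 213 and 68 bases before it in Ocln and 17 before it in Tjp3. Over the full windows of 300 bases, which reach 50 bases past the start, 7 of the 9 genes held the box, Tjp1 and Cldn1 being the exceptions, where a match in either window counted for the 4 genes with 2 windows. Counted in the same way, 20.7% of the 11017 tested genes with a window held it. With the most upstream window of each gene alone, 6 of the 9 genes (without Cldn7) and 17.2% of the tested genes held it. It was present for genes that fell (Ocln, F11r) and for the gene that rose (Tjp3). A match describes letters in a window and does not show binding.

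At an adjusted p of at most 0.05 in the edgeR quasi-likelihood fit, adjusted after Benjamini and Hochberg over 13966 tested genes, 3 of the 9 genes were called. Ocln and F11r fell after BI, Tjp3 rose, and the other 6 were not called. In the background, 28.7% of all tested genes were called in either direction, 14.6% as higher and 14.1% as lower. A count of 3 of 9 (33.3%) therefore lay near that of genes in general. All 9 genes passed the filter on low counts, Cldn3 only through BI tumors. Their median log2 fold change was 0.05, beside -0.0037 over all tested genes. The groups did not overlap for 3 of the 9 (Tjp3, Cldn4 and F11r), and for 28.1% of all tested genes. With the cutoffs the study used (unadjusted p up to 0.05 and a change of at least 1.5-fold), 4 of the 9 passed (Ocln, Tjp3, Cldn3 and Cldn4), against 13.1% of all tested genes. The 9 genes were chosen with earlier results known, and Cldn3 was tested only through BI tumors. No excess over genes in general is therefore read from this count.

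**Figure D1:**
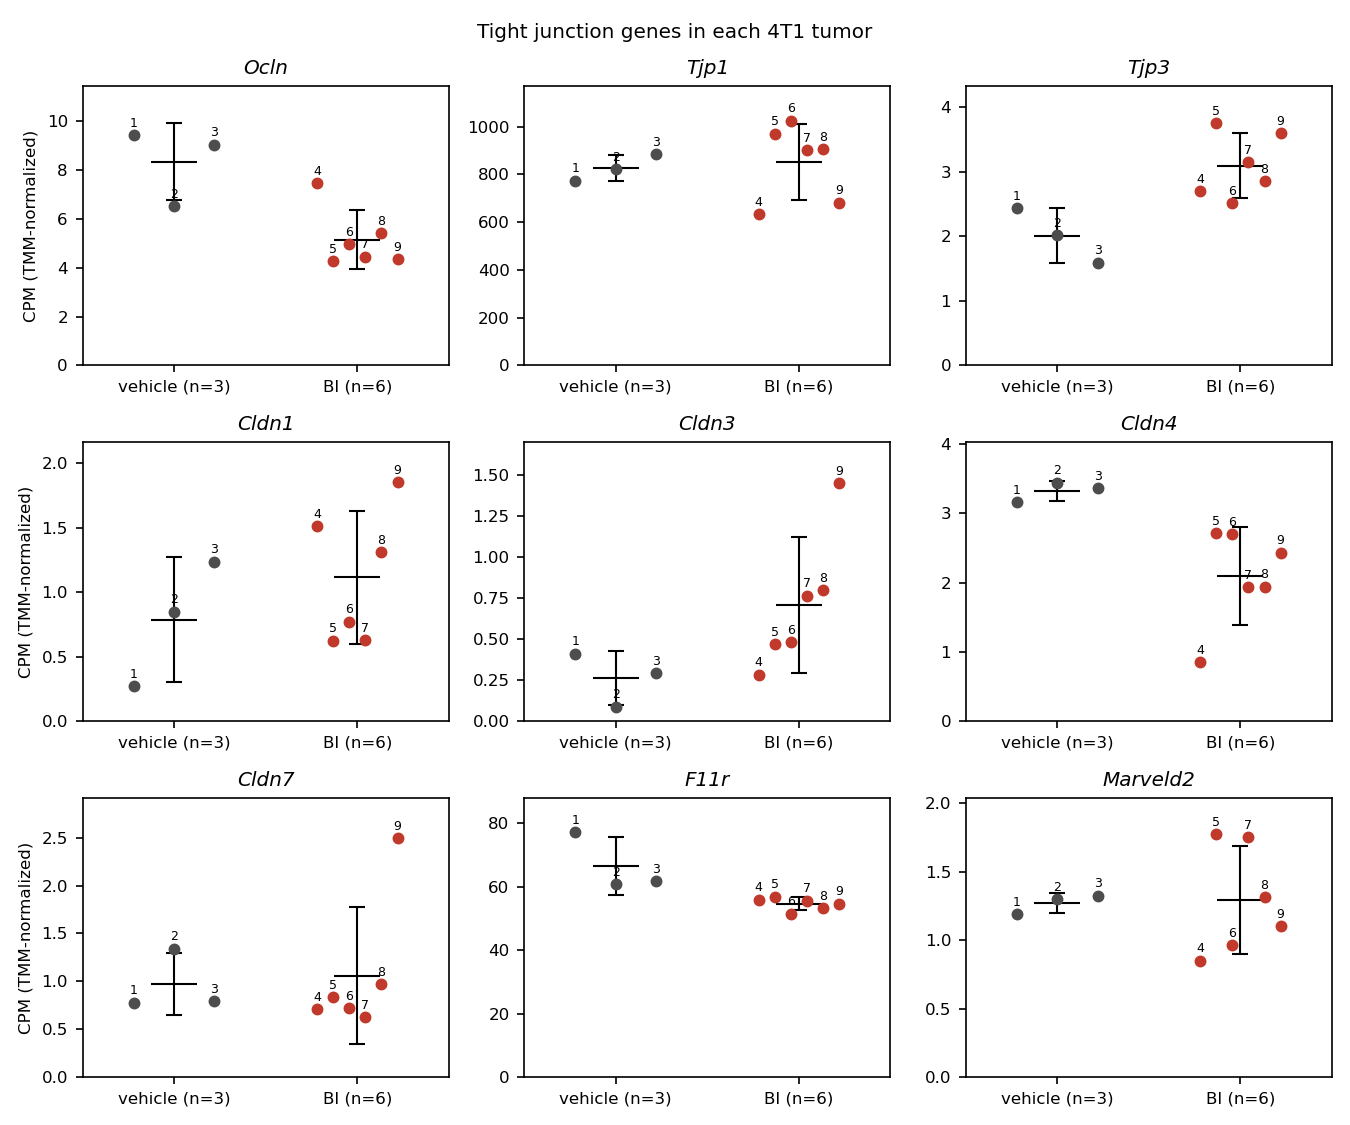
CPM (y axis, from 0) of the 9 genes in each tumor, with grey points for vehicle and red points for BI, each numbered by sample, and black bars for mean ± SD. All BI points lie below all vehicle points for Cldn4 and F11r and above them for Tjp3, whereas for Ocln BI 4 alone lies within the vehicle range.

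Occludin, the first integral tight junction protein to be described, had lower RNA after BI. Ocln (gene 18260; mm9 chr13:101266462-101322673, minus strand) was at 9.44, 6.53 and 9.04 CPM in vehicle 1, 2 and 3. In BI 4 to 9 it was at 7.46, 4.28, 4.97, 4.45, 5.42 and 4.35 CPM. In 5 of 6 BI tumors the level was below every vehicle tumor, and BI 4 lay above vehicle 2. The mean went from 8.34 ± 1.58 (SD, n = 3) to 5.16 ± 1.21 CPM (SD, n = 6), an edgeR log2 fold change of -0.69 ± 0.187 (SE) with an adjusted p of 0.0165. An exact two-sided permutation test, which enumerated 84 ways of dividing the tumors, gave p = 0.0476, where 0.0238 is the smallest value it can give. The call was lost without vehicle 1 (adjusted p = 0.0767) and without vehicle 3 (0.0762), with the fold change between -0.84 and -0.60 over all single omissions.

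JAM-A, which also occurs on leukocytes, platelets and endothelium, showed a smaller decrease on a higher level. F11r (gene 16456; mm9 chr1:173367666-173394734, plus strand) was at 77.2, 60.7 and 61.6 CPM in vehicle 1, 2 and 3. After BI it was at 55.9, 56.8, 51.5, 55.6, 53.1 and 54.6 CPM in tumors 4 to 9. The BI tumors were tightly grouped and all below the lowest vehicle tumor. F11r fell from 66.5 ± 9.25 to 54.6 ± 1.98 CPM (SD), with a log2 fold change of -0.28 ± 0.0763 (SE), an edgeR adjusted p of 0.0166 and an exact permutation p of 0.0238. Vehicle 1 was far above the other vehicle tumors, and without it the fold change was -0.16 and the adjusted p 0.0888. Leukocyte markers, all 5 of which rose, and platelet markers, of which 0 of 3 were called, are given with those of other cells further on.

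ZO-3, a scaffold found mainly in epithelial cells, was the member that rose. Tjp3 (gene 27375; mm9 chr10:80735952-80754012, minus strand) was at 2.43, 2.01 and 1.59 CPM in vehicle 1, 2 and 3, and at 2.69, 3.75, 2.51, 3.15, 2.85 and 3.59 CPM in BI 4 to 9. Every BI tumor lay above every vehicle tumor, by little for BI 6 over vehicle 1. The mean rose from 2.01 ± 0.419 to 3.09 ± 0.4995 CPM (SD), a log2 fold change of 0.63 ± 0.206 (SE) with an edgeR adjusted p of 0.0389 and an exact permutation p of 0.0238. The gene had 45 to 72 counts per tumor, and its call was lost without vehicle 2 (0.0924), vehicle 3 (0.168), BI 5 (0.0664), BI 7 (0.0670) or BI 9 (0.0646). In 40 bases its exons overlap those of Apba3 on the opposite strand, and whether counting used strand is not given in the sources used here. Apba3 was at 42.0 CPM with vehicle and 40.0 CPM with BI, with an adjusted p of 0.605.

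ZO-1, the founding ZO scaffold, was by far the most abundant of the 9 and was not called. Tjp1 (gene 21872; mm9 chr7:72441051-72516125, minus strand) was at 773, 821 and 885 CPM in vehicle 1, 2 and 3, and at 633, 971, 1025, 902, 906 and 681 CPM in BI 4 to 9. The BI tumors lay on both sides of the vehicle tumors, 4 above and 2 below all 3 of them. The means were 826 ± 56.0 and 853 ± 159 CPM (SD), and the log2 fold change was 0.05 ± 0.142 (SE) with an edgeR adjusted p of 0.837. ZO-1 and ZO-3 thus had different calls, although a difference between their fold changes was not tested.

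Cldn4, which with Cldn3 is the receptor of a clostridial enterotoxin, was lower in every BI tumor without passing the adjusted threshold. Cldn4 (gene 12740; mm9 chr5:135420996-135422804, minus strand, 1 exon) was at 3.16, 3.44 and 3.36 CPM in vehicle 1, 2 and 3, and at 0.85, 2.71, 2.70, 1.93, 1.94 and 2.43 CPM in BI 4 to 9. The vehicle tumors were close together and the BI tumors spread widely, with BI 4 far below the rest. The means were 3.32 ± 0.144 and 2.10 ± 0.702 CPM (SD), with a log2 fold change of -0.67 ± 0.280 (SE), an edgeR adjusted p of 0.0939 and an exact permutation p of 0.0238. Over all single omissions the adjusted p stayed between 0.0659 and 0.199.

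Cldn3, which lies close to Cldn4 on chromosome 5, had the largest fold change among the 9 and the lowest counts, 2 to 25 per tumor. Cldn3 (gene 12739; mm9 chr5:135462084-135463342, plus strand, 1 exon) was at 0.41, 0.09 and 0.29 CPM in vehicle 1, 2 and 3, and at 0.28, 0.47, 0.48, 0.76, 0.80 and 1.45 CPM in BI 4 to 9. In 5 of 6 BI tumors the level was above every vehicle tumor, and vehicle 2 was under the floor of 3 counts. The log2 fold change was 1.36 ± 0.553 (SE) with an edgeR adjusted p of 0.0848, and the exact permutation p was 0.0714. No vehicle tumor reached the low-count filter (10 counts, scaled to library size). Cldn3 was thus tested only through BI tumors, and its fold change is given as description. It was not tested without BI 7 or with a filter of 1 CPM in 3 tumors. Without BI 4 the adjusted p was 0.0478, and without BI 9, the highest tumor, the fold change was 1.04 (adjusted p = 0.139). A stretch of 40 exonic bases overlaps Wbscr25 on the opposite strand.

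Cldn1 and Cldn7, sealing claudins of many epithelia, did not pass the test. Cldn1 (gene 12737; mm9 chr16:26356728-26371927, minus strand) was at 0.28, 0.85 and 1.24 CPM in vehicle 1, 2 and 3, and at 1.51, 0.63, 0.77, 0.63, 1.31 and 1.86 CPM in BI 4 to 9. Both groups were spread over much of the same range, with a log2 fold change of 0.44 ± 0.466 (SE) and an edgeR adjusted p of 0.506. Cldn7 (gene 53624; mm9 chr11:69778281-69781387, plus strand) was at 0.78, 1.34 and 0.80 CPM in vehicle 1, 2 and 3, and at 0.71, 0.83, 0.72, 0.63, 0.97 and 2.49 CPM in BI 4 to 9. BI 9 alone was above the vehicle tumors, and the log2 fold change of 0.11 ± 0.442 (SE; edgeR adjusted p = 0.874) became -0.32 without it.

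Tricellulin, which closes the points where 3 cells meet, showed means close together. Marveld2 (gene 218518; mm9 chr13:101365912-101386926, minus strand, near Ocln) was at 1.19, 1.30 and 1.33 CPM in vehicle 1, 2 and 3, and at 0.85, 1.77, 0.97, 1.75, 1.31 and 1.10 CPM in BI 4 to 9. The BI tumors lay on both sides of the narrow vehicle range. The log2 fold change was 0.02 ± 0.276 (SE), with an edgeR adjusted p of 0.960. The gene had 18 to 45 counts per tumor.

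**Figure D2:**
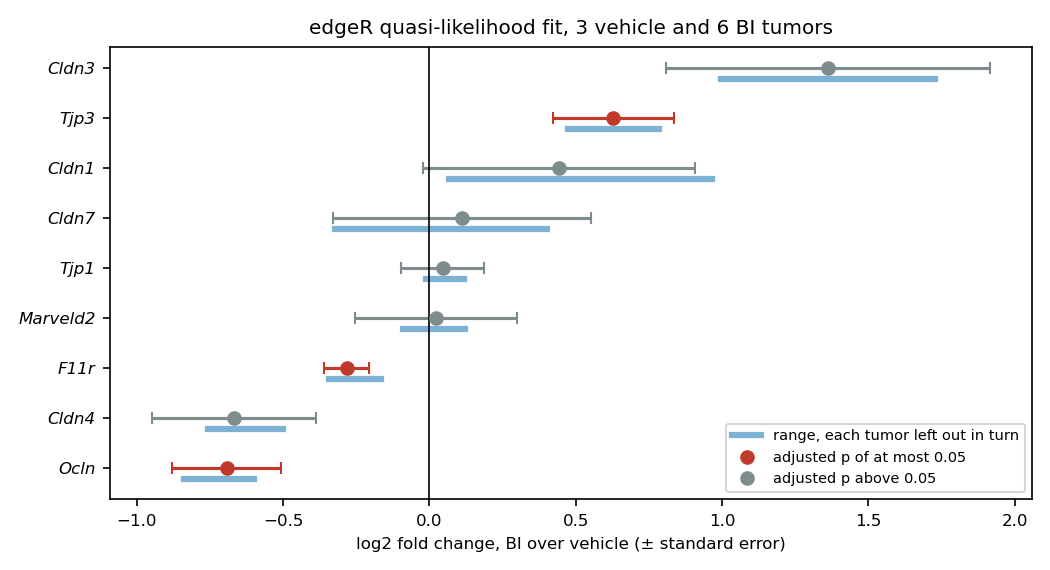
Log2 fold change of BI over vehicle (x axis) for the 9 genes with its standard error, in red at an adjusted p of at most 0.05 and in grey above it, and blue bars for the range when each tumor was left out in turn. Ocln (-0.69), F11r (-0.28) and Tjp3 (0.63) are red, and the wide bars of Cldn1, Cldn3 and Cldn7 belong to genes near 1 CPM.

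Compared per gene length, as RPKM (counts scaled by library size and by the deposited gene length), the 9 genes spanned a wide range. In vehicle-treated tumors the mean level was 116 RPKM for Tjp1, 26.8 for F11r, 2.61 for Ocln, 1.83 for Cldn4, 0.669 for Cldn7, 0.664 for Tjp3, 0.376 for Marveld2, 0.243 for Cldn1 and 0.210 for Cldn3. Tjp1, F11r, Ocln and Cldn4 were apart from each of their neighbors in this order in all vehicle tumors. The ranges of Cldn7 and Tjp3 overlapped, and that of Cldn1 overlapped those of Marveld2 and Cldn3. With BI the order was Tjp1 (120 RPKM), F11r (21.997), Ocln (1.62), Cldn4 (1.16), Tjp3 (1.02), Cldn7 (0.730), Cldn3 (0.561), Marveld2 (0.382) and Cldn1 (0.345), and below F11r every gene overlapped the next. Tjp1 made up 74.2% to 79.7% of the summed RPKM of the 9 genes in vehicle tumors and 76.3% to 84.7% in BI tumors. The 4 claudins together made up 1.84% to 2.16% and 1.41% to 3.81%.

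**Figure D3:**
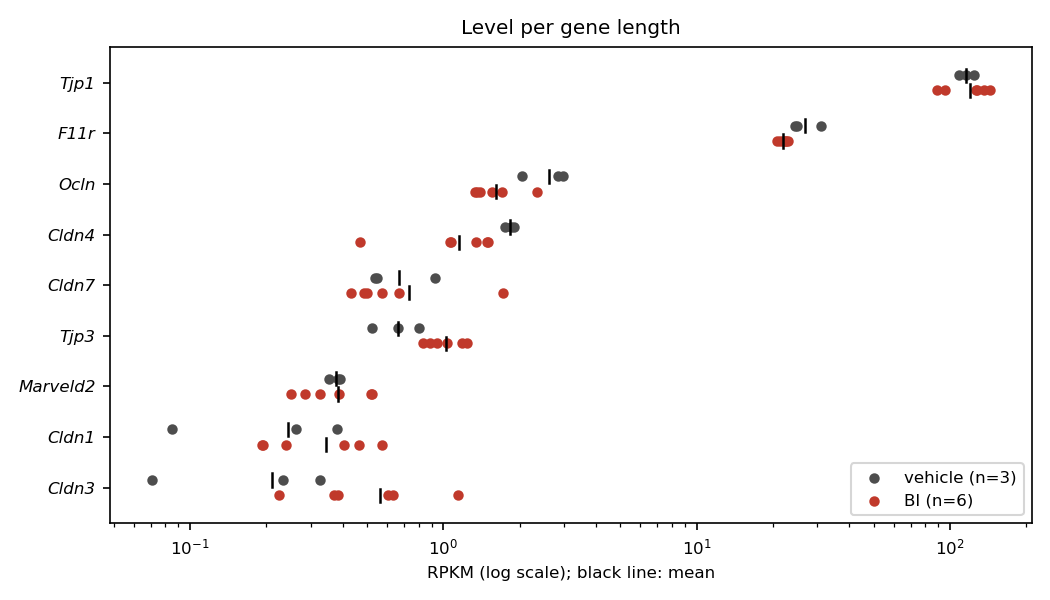
RPKM on a log axis (x) of the 9 genes, with grey points for the 3 vehicle and red points for the 6 BI tumors and black lines for means. Tjp1 near 116 and F11r near 26.8 RPKM lie well above the remaining 7 genes, whose points lie below 3 RPKM.

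Tumors did not rank alike for all members. BI 9 was the highest of the 9 tumors for Cldn1, Cldn3 and Cldn7, BI 4 the lowest for Tjp1, Cldn4 and Marveld2, and vehicle 1 the highest for Ocln and F11r. Epithelial markers were present but uneven. Krt8 and Krt18, the keratins of simple epithelia, were the most abundant and fell after BI, Krt18 from 579 ± 57.7 to 409 ± 58.3 CPM (SD; log2 fold change -0.50, edgeR adjusted p = 0.00636) and Krt8 from 478 ± 58.3 to 394 ± 38.4 CPM (-0.28, 0.0444). The call of Krt8 was lost in 6 of 9 single omissions. Epcam, a surface protein that binds and stabilizes claudins, was at 1.503 to 2.70 CPM with vehicle and 1.98 to 10.3 CPM with BI (adjusted p = 0.0987). Cdh1, which encodes E-cadherin, was at 18.7 to 19.9 and 12.5 to 36.7 CPM (adjusted p = 0.686). In all, 2 of 6 epithelial markers were called, both as lower, and none was at 0.

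Set against epithelial genes of the same tumor, the differences depended on the gene chosen as reference. Relative to the mean log2 level of Krt8 and Krt18, a reference chosen after seeing the data, Ocln differed by -0.30, Cldn4 by -0.33, F11r by 0.12 and Tjp3 by 1.00, so that F11r turned from lower to higher. Only Tjp3 kept its groups apart on this scale, with all BI tumors above. Relative to Epcam alone, also chosen afterwards, Ocln differed by -1.55, F11r by -1.14, Cldn4 by -1.59 and Tjp3 by -0.26, so that Tjp3 turned to lower, with overlapping groups except for Cldn4. The mean of Epcam, Krt8 and Krt18 joins references that moved in opposite directions, and on it Ocln differed by -0.72, F11r by -0.30, Cldn4 by -0.75 and Tjp3 by 0.58. Relative to Cdh1 the differences were -0.76 for Ocln, -0.35 for F11r, -0.80 for Cldn4 and 0.53 for Tjp3, and all groups overlapped. These are differences of log2 ratios, with no test. Ocln was lower on all 4 of these scales and F11r on 3 of 4, and Tjp3 was higher on 3 of 4.

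Markers of host cells moved with treatment. All 5 leukocyte markers rose (summed level 1175 to 1314 CPM with vehicle and 1542 to 1829 CPM with BI), and 3 of 7 endothelial markers rose (174 to 196 and 197 to 282 CPM), of which Cldn5 is also a claudin. Over single omissions 4 to 5 leukocyte and 0 to 5 endothelial markers were called as higher, with 0 endothelial markers without vehicle 3, and without vehicle 3 and BI 9 together the counts were 2 and 0. Ptprc, the leukocyte antigen CD45, rose from 174 ± 7.98 to 289 ± 33.7 CPM (SD; log2 fold change 0.73, edgeR adjusted p = 0.000225). Coro1a (0.59, 0.00703), Itgb2 (0.29, 0.00510) and Lcp1 (0.33, 0.00853) rose less, and Lcp1 was the most abundant per length. Among endothelial genes, Kdr (0.38, 0.0214) and Cdh5 (0.41, 0.0231) rose, and Pecam1, the most abundant per length, was at 80.0 and 101 CPM (0.0532). Of the 5 fibroblast markers 1 rose, Col1a2 (summed 1822 to 3187 and 2440 to 5518 CPM), a call lost in 6 of 9 single omissions. The number of fibroblast markers called as higher was 0 to 3 over single omissions, 3 with the cutoffs of the study and 3 without vehicle 3 and BI 9. Col1a1, the most abundant of them per length, was at 631 ± 272 and 1230 ± 463 CPM (SD; edgeR adjusted p = 0.0538) and was called without vehicle 3 (0.0282). None of the 3 tested platelet (Pf4, the most abundant per length, at 41.1 and 46.9 CPM), 3 adipocyte, 3 muscle or 3 basal epithelial markers was called. Csn3, a milk casein, was the 1 tested secretory marker and rose from 0.993 to 3.42 CPM (adjusted p = 0.0422), a call lost in 5 of 9 single omissions. The summed adipocyte markers ranged from 30.9 to 50.2 CPM with vehicle and from 46.4 to 227 CPM with BI, the highest in BI 9. In BI 9, the tumor highest in Cldn1, Cldn3 and Cldn7, Epcam (10.3 CPM), Krt19 (23.7 CPM) and Fabp4 (210 CPM) were also the highest of all tumors. The other epithelial markers were mixed there. Krt7 (3.01 CPM) was the highest of all tumors, Krt8 (347 CPM) the lowest, and Krt18 (371 CPM) and Cdh1 (25.7 CPM) were neither. Vehicle 3, the lowest tumor for Tjp3, held Krt1 at 5.33, Krt10 at 11.6 and Lor at 1.00 CPM, markers of keratinized epidermis that summed with Ivl (0.295) to 18.2 CPM there and to at most 4.15 CPM in any BI tumor. Krt1 was at 0 in 7 of the tumors, and Krt10, the 1 tested marker of this list, was called as lower after BI only with vehicle 3 included (adjusted p = 0.0176, and 0.265 without it). Without vehicle 3 and BI 9 together, an omission chosen after seeing the data, Ocln had a log2 fold change of -0.58 (adjusted p = 0.117), Tjp3 0.44 (0.224) and F11r -0.33 (0.042), so that 0 of the 9 genes were called as higher and 1 as lower. The part of other cells in the differences of Ocln, F11r and Tjp3 was not tested.

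**Figure D4:**
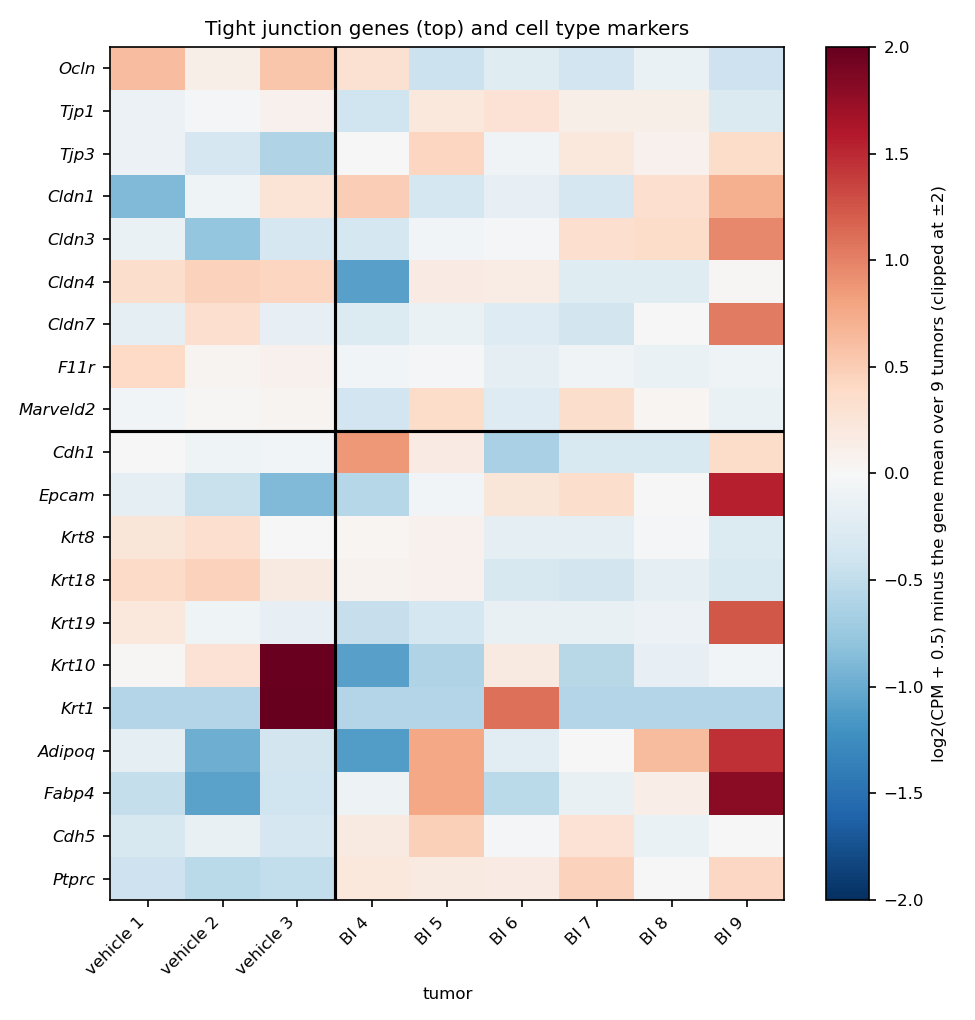
Color shows log2(CPM + 0.5) minus the mean of the gene over the 9 tumors (columns), for the 9 genes (above the black line) and for markers of epithelium, epidermis, fat, endothelium and leukocytes (below it). Cldn1, Cldn3 and Cldn7 are reddest in BI 9, as are Epcam, Krt19 and Fabp4, and Krt1 and Krt10 are reddest in vehicle 3. Krt8 is at its lowest in BI 9, and Cdh1 is reddest in BI 4.

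Other genes of the junction were examined by list. The scaffolds and cytoplasmic plaque form the layer beneath the membrane to which the ZO proteins belong. In this list, 7 of 13 genes fell and none rose, with a median log2 fold change of -0.30. Tjp1, which was not called, and Tjp3, which rose, are counted among the 9 genes and not in this list. Over all tested genes the median was -0.0037, with 14.1% called as lower and 14.6% as higher, and the other lists are to be read beside the same shares. Cingulin (Cgn), which links ZO proteins to myosin and microtubules, fell from 5.95 ± 0.784 to 1.74 ± 0.579 CPM (SD; log2 fold change -1.78, edgeR adjusted p = 0.000481). The angiomotin family scaffolds Amotl2 and Amot, which bind YAP, fell from 71.3 ± 11.1 to 24.3 ± 6.36 CPM (-1.56, 0.000122) and from 31.9 ± 1.51 to 21.7 ± 1.80 CPM (-0.55, 0.000445). Patj, Magi3, Mpdz and Cgnl1 were the other 4 that fell, by 0.30 to 0.61 on the log2 scale. Ybx3, the ZO-1 associated factor ZONAB and the most abundant of the list per length (137 RPKM with vehicle), was at 255 and 216 CPM with an adjusted p of 0.05001, just over the threshold. The count of genes that fell was 5 to 7 over single omissions, 4 without vehicle 3 and BI 9, and 3 with the study's cutoffs, which ask for a 1.5-fold change. No list was tested as a set. The lists were chosen with earlier results of these data known, so no excess over genes in general is read from their counts.

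Among membrane proteins outside the 9, the list of other claudins had 17 of 24 genes in the counts and 5 tested, of which 1 rose and 1 fell. This list also holds the claudin domain genes Cldnd1 and Cldnd2. Cldn12, a claudin that lacks the usual binding motif for ZO proteins, fell from 51.5 ± 0.754 to 29.8 ± 1.92 CPM (SD; log2 fold change -0.79, edgeR adjusted p = 1.86e-05). Cldn5, the claudin of endothelium, rose from 7.25 ± 1.33 to 10.5 ± 1.90 CPM (0.54, 0.0307), a call that was lost without vehicle 3 (0.151) or BI 4 (0.0509) and that stands beside the endothelial markers above. Cldnd1, the most abundant of the list per length, was at 89.0 and 85.3 CPM (0.529), and Cldn8, Cldn13, Cldn14, Cldn18, Cldn19 and Cldn20 had at most 3 counts in every tumor. Of 5 junctional immunoglobulin proteins 1 rose and 1 fell. Cxadr, the coxsackievirus and adenovirus receptor of epithelial junctions, fell from 83.8 ± 13.8 to 33.3 ± 5.92 CPM (-1.33, 6.22e-05), and Jam2, mainly endothelial, rose from 7.42 ± 0.172 to 10.5 ± 1.52 CPM (0.50, 0.0114), which was 0.0525 without vehicle 3. Of 4 tricellular and MARVEL proteins only Ildr1 was called, from 0.477 to 1.08 CPM (1.19, 0.0467), and it lost the call in 7 of 9 single omissions. Marveld1, the most abundant per length, was at 45.6 and 49.9 CPM (0.206).

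Of 12 polarity genes, 4 fell and 1 rose, where 3 to 5 fell over single omissions and 2 with the cutoffs of the study. The PAR complex members Prkci (atypical protein kinase C iota) and Pard6b fell from 72.0 ± 6.47 to 44.5 ± 3.66 CPM (SD; log2 fold change -0.70, edgeR adjusted p = 0.000113) and from 4.80 ± 0.357 to 2.08 ± 0.493 CPM (-1.20, 0.000896). Lin7c (-0.30, 0.00207) and Dlg1 (-0.22, 0.0420) fell less, and Llgl2, a lateral determinant, rose from 7.84 to 9.80 CPM (0.32, 0.0373), a call lost in 5 of 9 single omissions. Of 10 adherens junction genes, 3 fell and 1 rose, where 2 to 3 fell over single omissions, 3 to 5 with other tools and settings and 0 with the cutoffs of the study. Nectin2 (-0.51, 0.000190), Nectin3 (-0.40, 0.00681) and the nectin-binding scaffold Afdn (-0.38, 0.00826) fell, Nectin4 rose from 3.58 ± 0.0872 to 6.81 ± 1.04 CPM (0.93, 0.00114), and Ctnnb1, the most abundant per length, was at 1019 and 913 CPM (0.103). The call of Afdn was lost without vehicle 3 (0.0521). Of 9 desmosome genes only the plaque protein Evpl was called (8.26 to 17.1 CPM, 1.06, 0.00975, and 0.0584 without vehicle 3), while Ppl, the most abundant per length, was at 88.3 and 98.2 CPM (0.488).

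**Figure D5:**
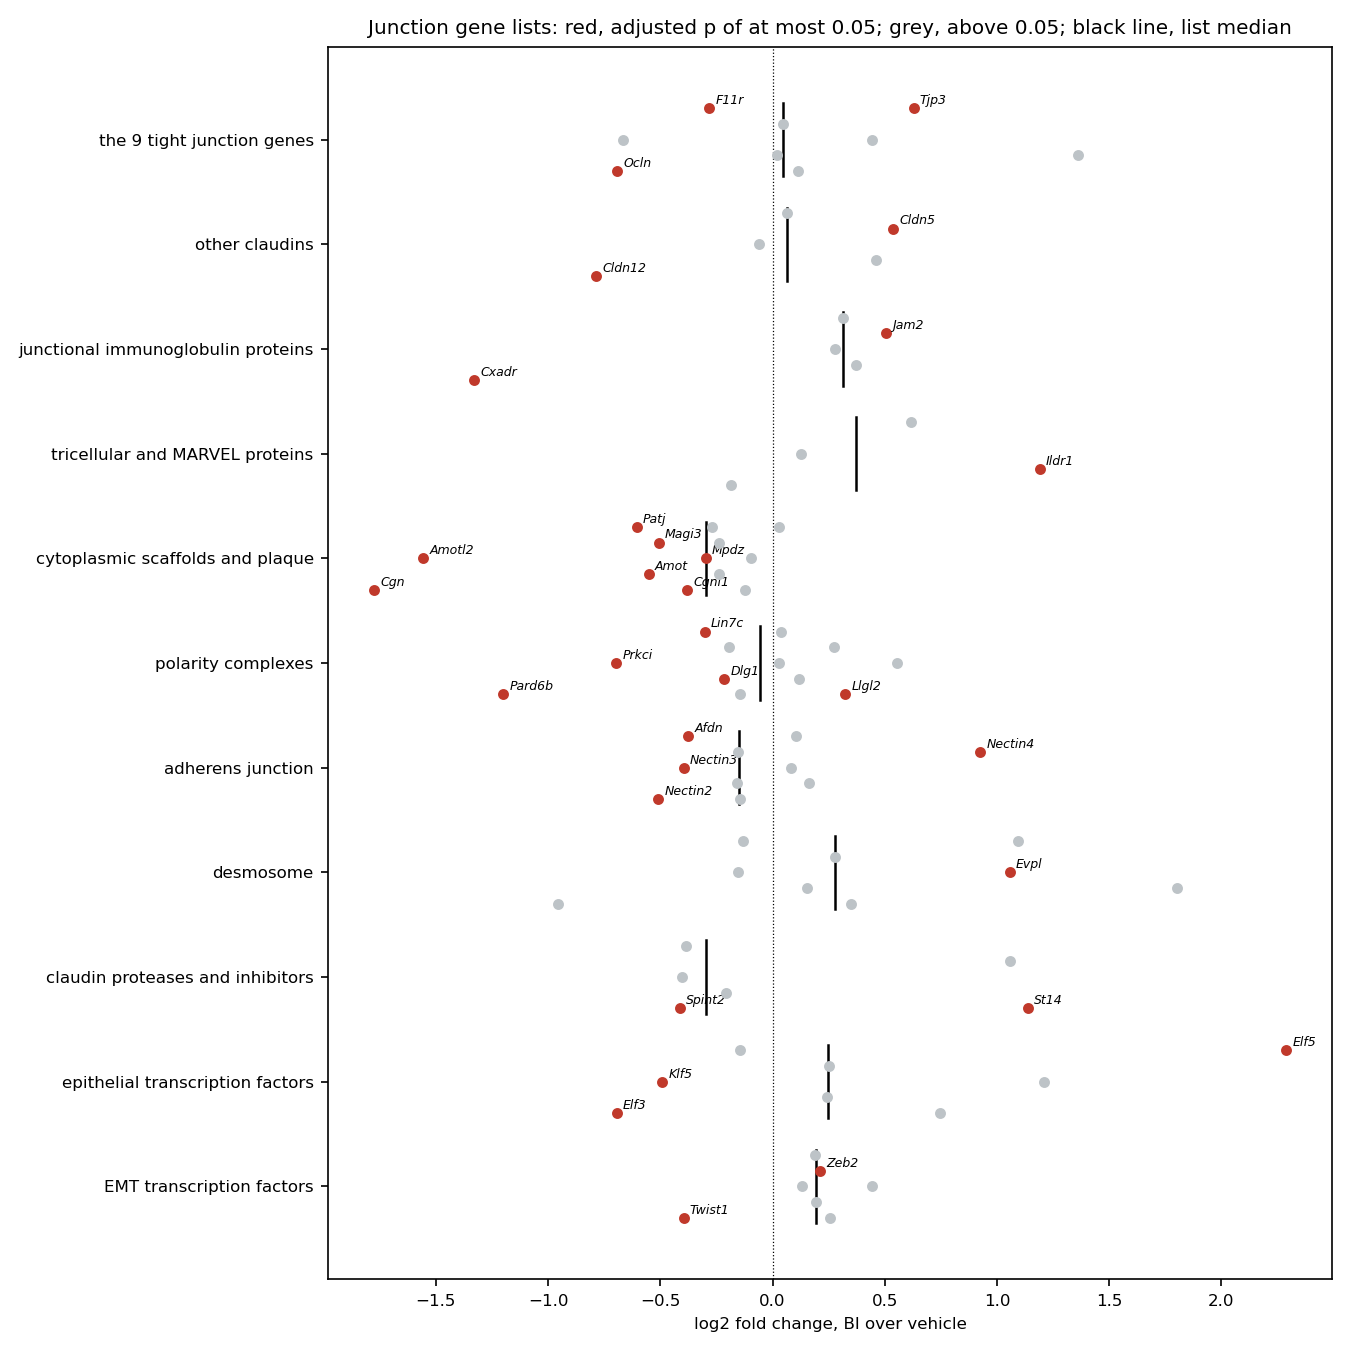
Log2 fold change of BI over vehicle (x axis) of each tested gene in the 9 genes and in 10 junction lists (rows), with called genes in red and named, others in grey, and list medians as black lines; vertical offsets within a row have no meaning. The plaque list holds 7 red genes, all left of 0, while the 9 tight junction genes hold 2 left and 1 right of 0.

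Regulators of junction proteins moved in both directions. Of 6 genes for claudin-directed proteases and their inhibitors, matriptase (St14), a membrane protease, rose from 2.14 ± 0.343 to 4.72 ± 1.15 CPM (SD; log2 fold change 1.14, edgeR adjusted p = 0.00392), and its inhibitor Spint2 fell from 176 ± 6.54 to 132 ± 12.6 CPM (-0.41, 0.00233). The list of epithelial transcription factors had 8 tested genes, among them the splicing regulators Esrp1 and Esrp2. In it, Klf5 (63.7 to 45.3 CPM, -0.49, 0.00242) and Elf3 (3.73 to 2.31 CPM, -0.69, 0.0378) fell. Elf5, a factor of the alveolar mammary lineage, rose from 0.165 ± 0.0267 to 0.844 ± 0.511 CPM (2.29, 0.00909). The Elf3 call was lost in 6 of 9 single omissions. Elf5 had 3 to 31 counts per tumor, and no vehicle tumor reached the low-count filter for it. Elf5 was thus tested only through BI tumors, and with a filter of 1 CPM in 3 tumors it was not tested. Of 7 EMT factors, Zeb2 rose from 318 ± 14.3 to 369 ± 13.5 CPM (0.21, 0.0161, and 0.0893 without vehicle 1), and Twist1 fell from 54.9 ± 4.46 to 41.7 ± 6.52 CPM (-0.40, 0.0257, and 0.107 without vehicle 2 or 0.0721 without vehicle 3). Snai1 was at 35.4 to 47.1 CPM with vehicle and 33.5 to 63.1 CPM with BI (adjusted p = 0.595), and Zeb1 at 12.3 to 12.8 and 10.8 to 16.4 CPM (0.134). Zeb2 is also expressed in leukocytes, whose markers rose in the same tumors, and the share of either source was not tested.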

How the data were processed

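Messenger RNA libraries of 9 4T1 tumors (3 vehicle, 6 BI) were prepared with a stranded kit and read as pairs. The authors aligned reads to mm9 with STAR and deposited raw counts per RefSeq gene, with gene lengths beside them, without normalization. Whether counting used strand or both mates is not given in the sources used here. Entrez identifiers were matched to RefSeq symbols for 18700 of 18755 genes, and positions came from a GENCODE annotation of NCBIM37 (mm9).

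From the deposited counts, edgeR 4.0.16 in R 4.3.3 was run with TMM factors, filterByExpr (minimum count 10, minimum total 15) and a quasi-likelihood F test comparing BI with vehicle, with no covariate, on 13966 genes, with Benjamini-Hochberg adjustment over all of them and a threshold of 0.05. CPM are TMM-normalized, and RPKM used the deposited lengths. Exact permutation tests used the difference of mean log2 CPM (prior count 2), two-sided. The fit was tested on simulated data. Start-site windows were taken from RefSeq (GRCm38.p6), where all 9 genes had a window.

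The 9 members and the 20 gene lists (144 of 151 entries in the counts) were chosen with earlier results of these data known. The lists cover 10 junction groups and 10 marker groups: epithelium, basal, secretory, epidermis, endothelium, leukocytes, platelets, fibroblasts, adipocytes and muscle. In each list the called genes, at most 3 in each direction by smallest p, and the most abundant gene by RPKM are named, and 1 gene was left out of the plaque list and is not reported here. Patj, Magi3, Mpdz, Cgnl1, Dlg1, Snai1, Zeb1, Krt1, Lor, Krt19, Krt7, Apba3 and the claudins with few counts were added after their values were seen. Alternatives were normalization by RLE or by library size alone, no low-count filter, a filter of 1 CPM in 3 tumors, DESeq2 1.42.0, limma-voom (limma 3.58.1), the likelihood ratio test, the study's cutoffs, TPM and leaving out each tumor.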

Additional observations from a re-analysis of the deposited data

Results flagged for a closer look

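On the scale of log2 CPM, 58 genes were screened within the 6 BI tumors. In 5 of them, the distance of 1 tumor to its nearest neighbor exceeded 0.625 of the range of the group. For normally distributed values, chance gives such a tumor in about 1 in 20 groups. Among the tight junction genes, Cldn4 in BI 4 was at 0.850 CPM beside 1.93 to 2.71 CPM in the other BI tumors, and Cldn7 in BI 9 was at 2.49 CPM beside 0.630 to 0.970 CPM. In BI 5, Cgn was at 0.678 CPM beside 1.62 to 2.32 CPM, and Prkci was at 37.4 CPM beside 44.7 to 47.4 CPM. Coro1a, a leukocyte marker, was at 223 CPM in BI 7 beside 149 to 169 CPM in the others.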

How the results depend on the processing

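Over the alternatives with a test, the fold changes of the 9 genes kept their direction and their side of the threshold in 127 of 150 values, and the direction turned in 11, all of genes not called. Tjp1 ranged from -0.0132 to 0.12 on the log2 scale over single omissions, Cldn7 from -0.32 to 0.40 and Marveld2 from -0.0889 to 0.12. Cldn7 was also at -0.0129 and Marveld2 at -0.0298 with limma-voom, and Cldn7 at -0.45 without vehicle 3 and BI 9, an omission chosen after seeing the data. On the scales with no test (ratios to epithelial genes and a prior count of 0.5), 14 of 45 values had the opposite sign to the fitted fold change, among them the called genes F11r relative to Krt8 and Krt18 (0.12) and Tjp3 relative to Epcam (-0.26), both chosen after seeing the data. The number of members called as higher was 2 with the study's cutoffs, 2 with the likelihood ratio test (Cldn3, adjusted p = 0.0365), 0 to 2 over single omissions and 0 without vehicle 3 and BI 9, against 1. The number called as lower was 0 to 2 over single omissions and 1 without both tumors, against 2. Over all genes, 2040 were called as higher and 1973 as lower, beside 1337 and 498 with the study's cutoffs, 1332 and 1172 without vehicle 3, 1289 called as lower without vehicle 1, and 1283 and 966 without vehicle 3 and BI 9. Fewer tumors enter the fits with omissions, and no other cause was tested.

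Among the other named genes, none of those called changed direction, whereas over single omissions the uncalled Cldnd1 ranged from -0.12 to 0.0170, Krt14 from -1.32 to 0.0928, Acta1 from -0.87 to 2.34 (2.12 without vehicle 3 and BI 9) and Cdh1 from -0.0585 to 0.28. No paired analysis was possible because each tumor had 1 treatment and the labels link no vehicle tumor to a BI tumor. Genes near 1 CPM (Cldn1, Cldn3, Cldn7, Marveld2) rest on few counts, which limits what their values can show.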
